A study of Rattus norvegicus with 8 samples.

Results

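The MRAK lncRNAs are the long non-coding RNAs on the Arraystar rat lncRNA array whose names join the letters MR to the number of a mouse AK complementary DNA, which places each one in the rat by its mouse counterpart. They were chosen by name alone, as the probes other than control spots whose name starts with MRAK. There were 3588 of them among the 9361 lncRNA probes and the 24684 probes in all, and each had 1 probe printed in 3 spots. The array files used here give an MRAK lncRNA by its name only, without a sequence, a position or a host gene, so no role is stated for any single one.

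The RNA came from male F344 rats at week 95. Lung tumor and matched normal lung, 3 arrays of each, were from rats given NNK, a nitrosamine that tobacco smoke contains and that causes lung cancer in rodents. Blood was measured in 1 control and 1 NNK-treated sample, taken as the clot from whole blood. The normal lung had therefore been exposed to NNK as well, and no lung of an untreated rat was measured. The tumors of this model were described in the study's methods as moderately differentiated adenocarcinoma. The labels do not say how many animals stand behind a sample, so the p-values below measure only the spread between these arrays. One label of the NNK blood sample, its description, was that of a lung tumor, and its other labels named blood.

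Mouse AK cDNAs come from large-scale sequencing of full-length mouse transcripts, a source that gave many of the first long non-coding RNA catalogues. Such RNAs are commonly less abundant and more restricted to single tissues than mRNAs, and their sequences are less conserved between species than those of coding genes. Some act in the nucleus on chromatin or on the transcription of neighbouring genes, others act in the cytoplasm, and for most no function is known. NNK is turned in the lung into products that bind to DNA, and in rats it gives rise mainly to tumors of the peripheral lung.

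For every spot the array files hold a processed signal, a fluorescence intensity from which the scanner software has subtracted the background. The software marks spots well above background, and a lncRNA was counted as such on an array if more than 50% of its spots had the mark. The arrays fell on 3 slides as judged by their shared scan times, slide 1 with normal lung 1 to 3 and lung tumor 1, slide 2 with lung tumor 2 and 3, and slide 3 with both blood arrays. The 3 normal lung arrays, and likewise lung tumor 2 and 3, were nearly identical: their mean squared differences over MRAK lncRNAs were 0.478 to 0.783 and 0.444 times those that the spots of each probe gave by their own spread. They are therefore shown array by array without a mean ± SD, and the counts are also given with the 3 normal lung arrays as 1 sample and lung tumor 2 and 3 as 1 sample. Whether they were repeats of 1 RNA was not tested. The SE and adjusted p of the main lung fit below treat each array as a separate sample. For repeats of 1 RNA such values would overstate the precision.

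Cell-type markers moved with tissue and with tumor. Expressed as the log2 of their summed signals, the 6 type 2 alveolar markers with a probe lay at 19.8 to 19.9 in normal lung, 20.1 in lung tumor and 14.4 and 15.1 in control and NNK blood, which bears out the lung label. The sum of the 6 type 1 alveolar markers went from 19.8–19.9 in normal lung to 17.5 in lung tumor. That of the 3 endothelial markers went from 14.8–14.9 to 12.6–12.7, and that of the 3 proliferation markers from 11.0–11.2 to 13.0–13.7. Such sums follow the brightest markers. The type 1 marker Rtkn2 went the other way, from 2.52–2.78, not well above background, to 3.20–3.98, and was at 11.1 and 9.95 in blood. The endothelial marker Cdh5 was well above background on no array. The proliferation marker Ccnb1 was not well above background in normal lung (1.85–1.96) or on lung tumor 1 (1.66), and was at 3.57 and 3.66 on lung tumor 2 and 3. Platelet markers were highest in blood, at 17.6 and 17.1, the neutrophil sum was 15.6 in control blood and 17.0 in NNK blood, and that of the 2 B cell markers with a probe was 3.12 and 7.86. In bulk tissue fewer cells of a type and less RNA per cell cannot be told apart, and the part of these shifts in the MRAK changes was not tested.

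Of the 3588 MRAK lncRNAs, 2374 (66.2%) were detected, that is well above background, on 1 or more of the 8 arrays and 1214 on none. The other lncRNA probes reached 66.0% on the same count and the mRNA probes 87.8%. On single arrays the share ran from 42.8% to 46.3% in normal lung, was 48.0%, 56.2% and 53.8% in lung tumor 1, 2 and 3, and was 40.2% and 39.9% in control and NNK blood. All 3 tumor arrays lay above all 3 normal lung arrays, with tumor 1, which shared its slide with normal lung, closest to them. Relative to the other lncRNA probes pooled, MRAK lncRNAs were detected more often on all 6 lung arrays, by 3.61 to 4.69 percentage points. They were detected less often on both blood arrays, by 2.55 and 2.04 points. No test was run, because the blood arrays were a slide of their own. Neither difference held against every kind of lncRNA. Probes named BC reached 79.2% to 85.8% and those named NR 60.3% to 68.5% on the lung arrays, above MRAK lncRNAs. Those named XR, the ultraconserved regions and the remaining lncRNA probes lay below MRAK lncRNAs there. In control and NNK blood the ultraconserved regions (30.2% on both) and the remaining lncRNA probes (39.9% and 37.5%) lay below MRAK lncRNAs. The BC, NR and XR probes lay above them.

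**Figure D1:**
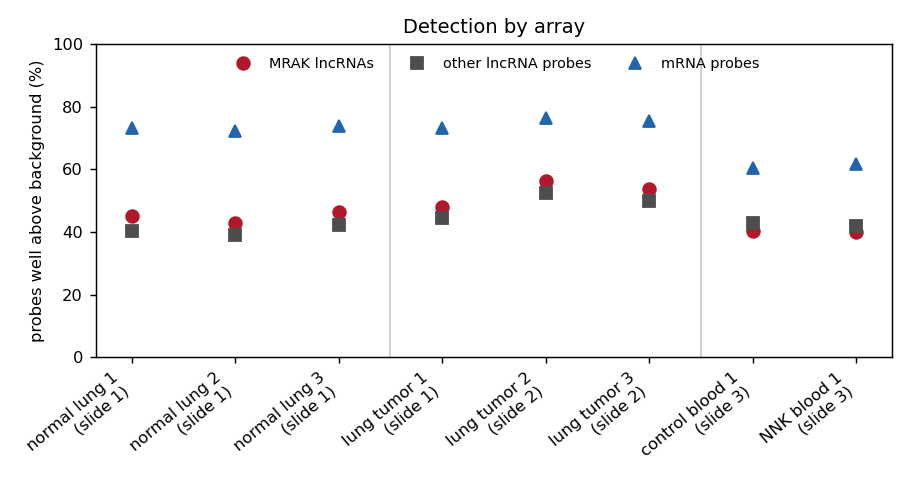
Share of probes well above background (vertical axis, percent of the probes of each kind) on each of the 8 arrays (horizontal axis, with the slide), for MRAK lncRNAs (circles), other lncRNA probes (squares) and mRNA probes (triangles), 1 value per array and no error bar. MRAK lncRNAs lay above the pooled other lncRNA probes on the 6 lung arrays and below them on both blood arrays. The mRNA probes were at 60.3% to 76.5%.

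By detection the MRAK lncRNAs held a set found on every array, a lung set and a small blood set. A set of 858 (23.9%) was well above background on all 8 arrays, fewer than the 38.8% of all probes, and the 1214 on none were 33.8%, against 20.4% of all probes. Another 466 (13.0%) were so on all 6 lung arrays and neither blood array, where the share over all probes of the array was 11.6%, and 123 (3.43%) on both blood arrays and no lung array, against 2.41% over all probes. The lung-only share was 17.3% among lncRNA probes named BC, 4.99% among those named XR and 4.05% among the ultraconserved regions, so it differed more between kinds of lncRNA than it did between MRAK lncRNAs and mRNA probes (12.6%). The blood-only share was 4.00% among XR probes, 4.11% among NR, 4.32% among the remaining lncRNA probes and 4.89% among the ultraconserved regions, all above MRAK lncRNAs. It was lower among BC probes (1.51%) and mRNA probes (1.62%). A further 74 (2.06%, against 1.83% of all probes) were well above background on the control blood array alone and 31 (0.864%, against 1.21%) on the NNK blood array alone.

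**Figure D2:**
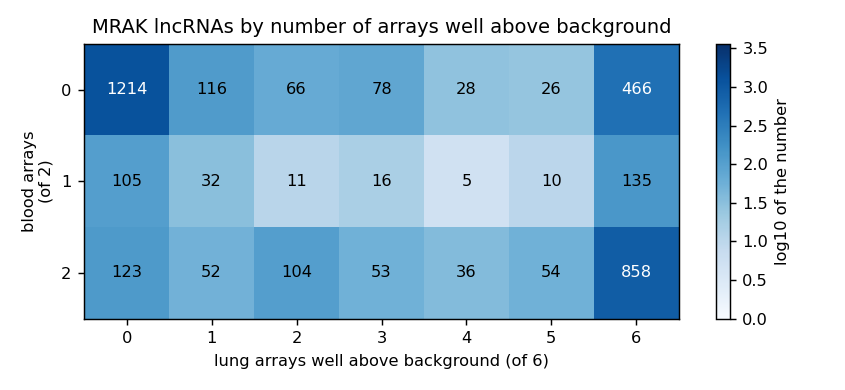
Number of MRAK lncRNAs (printed in each cell, with the colour as its log10) by the number of lung arrays (horizontal axis, of 6) and of blood arrays (vertical axis, of 2) on which they were well above background. The corners hold most of them, with 1214 on no array, 466 on all lung arrays and neither blood array, 123 on both blood arrays alone and 858 on all 8 arrays.

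To compare the tissues, the log2 processed signals were quantile-normalized over all 8 arrays. Since a signal not well above background has only an upper limit, the differences are given as bounds, in which such an array is set at no less than the weakest signal marked as well above background on it. Of the lung set MRAK003151 is named first, with log2 signals of 14.96, 14.99 and 14.92 in normal lung 1 to 3, 14.10, 13.88 and 14.00 in lung tumor 1 to 3, and 3.03 and 2.85 in control and NNK blood. Its mean over the lung arrays was at least 874-fold above that of the blood arrays, neither of which was well above background. MRAK003303 (at least 563-fold), MRAK050264 (107-fold) and MRAK077287 (129-fold) were called lower in lung tumor in the comparison described below. MRAK132637 (at least 171-fold) was in contrast one of the largest tumor rises, at 10.39, 10.40 and 10.37 in normal lung, 13.78, 13.89 and 13.90 in lung tumor, and 1.54 and 2.56 in blood on this scale.

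The blood set held bounds of similar size. MRAK158384 had log2 signals of 12.25 and 13.43 in control and NNK blood and of 1.47, 1.48, 1.48, 1.56, 1.94 and 1.89 in normal lung 1 to 3 and lung tumor 1 to 3. None of its lung arrays was well above background, and its mean in blood was at least 680-fold above that of the lung arrays. The bound was 718-fold for MRAK158670, 393-fold for MRAK142304, 365-fold for MRAK086285 and 467-fold for MRAK156405, whose 6 lung signals were not well above background either. Of the 466 lncRNAs of the lung set 360 had a value on every array, and 225 of them (62.5%, against 69.6% of all probes of that kind) had a bound of at least 2-fold, with a median bound of 3.20-fold. All 123 of the blood set had such values, 122 of them (99.2%, against 99.5%) had a bound of at least 2-fold, and the median bound was 15.4-fold. These are descriptions of the sets that the detection marks chose, and tissue and slide cannot be told apart.

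The lung comparison asked which MRAK lncRNAs changed in NNK-induced lung tumor compared with matched normal lung. Log2 signals of the 6 lung arrays were quantile-normalized together, spots with an outlier mark of the software were left out, and limma was fitted over all probes that were well above background on 3 or more of these arrays. A lncRNA was called at a fold change of at least 2 with a Benjamini-Hochberg adjusted p of at most 0.05 over the 12471 probes tested. Of the MRAK lncRNAs 1765 passed the filter and 1558 were tested. The other 207 kept fewer than 2 values in a group because of the outlier marks, which fell on 12.8% to 20.3% of the MRAK spots above background on the tumor arrays and on 6.0% to 9.08% on the normal lung arrays.

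Compared with normal lung, 213 MRAK lncRNAs were up-regulated in lung tumor, 13.7% of those tested where 13.5% of all probes tested were. The down-regulated numbered 244, 15.7% where the share of all probes was 15.5%. Both shares lay near the background of the array. Of the 213, 60 were well above background on no normal lung array, and of the 244, 7 on no tumor array. These passed the filter through 1 group only and are included in these counts. The matching shares of all called probes are not given. Over all probes of the array, too, more were well above background on the 3 tumor arrays alone (2.16%) than on the 3 normal lung arrays alone (0.523%), so the imbalance is not read as a trait of MRAK lncRNAs. Of the 60, 20 had a lower bound of at least 2-fold with the dim arrays set at their weakest marked signal. Of the called ones 46.6% were up-regulated, the same share as over all probes called (46.6%). The other lncRNA probes had 473 up-regulated and 234 down-regulated of 2276 tested (66.9% up-regulated among the called), but their kinds differed. Probes named BC had 68 and 92 (42.5%) and those named NR 4 and 5 (44.4%), near the MRAK share. The XR probes had 164 and 30 (84.5%), the ultraconserved regions 44 and 8 (84.6%) and the remaining lncRNA probes 193 and 99 (66.1%). The median log2 fold change was 0.12 over the MRAK lncRNAs and 0.07 over all probes tested, and 722 (46.3%) of the MRAK lncRNAs changed by less than 1.5-fold.

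The direction of the MRAK calls together depended on the scaling, since shifting each array by its 75th percentile gave 263 up-regulated and 229 down-regulated. With the near-identical arrays counted once, 82 and 132 were called, and with the normexp background correction 79 and 146. With the slide as a block, a fit in which the group difference rests on slide 1, 197 and 223 were called. The tumor and normal lung arrays did not overlap in 206 of the up-regulated (13.2% of those tested, against 12.3% of all probes) and 230 of the down-regulated MRAK lncRNAs (14.8%, against 14.5%). A change of over 4-fold was reached by 61 up-regulated (3.92%, against 4.48%) and 90 down-regulated (5.78%, against 6.38%). One of over 8-fold was reached by 13 (0.834%, against 1.45%) and 17 (1.09%, against 2.1%).

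**Figure D3:**
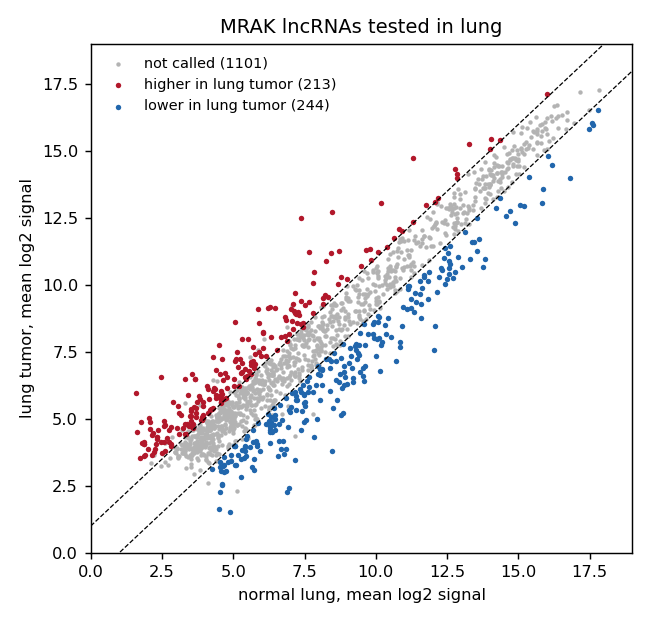
Mean log2 signal in lung tumor (vertical axis) against that in normal lung (horizontal axis) for the 1558 MRAK lncRNAs tested, each point the mean of the arrays with a value. Dashed lines mark a 2-fold difference, and the 213 up-regulated (red) and 244 down-regulated (blue) lncRNAs lie along the whole range of signals.

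The largest rise was that of MRAK034224, with log2 signals of 7.33, 7.36 and 7.43 in normal lung 1 to 3 and of 12.52, 12.50 and 12.52 in lung tumor 1 to 3. Each tumor array was about 5 log2 units above each normal lung array, with a fitted log2 fold change of 5.14 (SE 0.051, limma adjusted p = 1.7e-06). On both blood arrays it was not well above background. MRAK163703 went from 8.53, 8.41 and 8.44 to 12.52, 12.80 and 12.87 (log2 fold change 4.27, SE 0.108, adjusted p = 5.6e-06). Unlike MRAK034224, it was bright in blood too, at 11.73 and 11.91 on the scale of the blood arrays. MRAK032346 showed the same picture, with 7.72, 7.59 and 7.63 in normal lung, 10.93, 11.34 and 11.43 in lung tumor (log2 fold change 3.59, SE 0.144, adjusted p = 1.77e-05) and 10.29 and 10.02 in blood.

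MRAK132637, of the lung set above, had log2 signals of 11.30, 11.31 and 11.27 in normal lung and of 14.67, 14.77 and 14.77 in lung tumor. Its log2 fold change was 3.44 (SE 0.054, adjusted p = 3.4e-06), and the arrays within each group lay within 0.1 log2 units of one another. MRAK140000 went from 5.79, 5.91 and 5.91 to 9.16, 9.02 and 9.09, a log2 fold change of 3.22, and was not well above background in blood. MRAK144519 behaved alike, with 6.26, 6.18 and 6.20 against 9.03, 9.21 and 9.15 (log2 fold change 2.92). MRAK014727 rose by 3.04 on the log2 scale, from 4.48, 4.17 and 4.18 to 6.90, 7.57 and 7.49, without overlap of the groups.

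Other rises were less even across the tumor arrays. MRAK020214 had 4.51, 4.41 and 4.61 in normal lung and 5.64, 8.73 and 8.95 in lung tumor, so that tumor 1 was closer to normal lung than to the other tumors. Its log2 fold change of 3.27 (SE 0.923, adjusted p = 0.0253) was no longer called when any 1 array other than lung tumor 1 was left out, with adjusted p from 0.0635 to 0.0796, or with the near-identical arrays counted once (adjusted p = 0.313). MRAK014155 went from 9.86, 10.22 and 10.46 to 11.53, 13.66 and 13.96 (log2 fold change 2.87, adjusted p = 0.0136), and MRAK086190 from 6.44, 6.24 and 6.14 to 8.43, 9.39 and 9.68 (2.90, adjusted p = 0.000886). With the near-identical arrays counted once, their adjusted p was 0.237 and 0.0807. With the slide as a block, the log2 fold change was 1.14 for MRAK020214 and 1.35 for MRAK014155. The last 2 of the 12 were dim in normal lung, where each was well above background on 1 of 3 arrays: MRAK020355 had 3.85, 3.25 and 3.59 against 6.95, 6.71 and 6.39, and MRAK050526 had 4.19, 3.51 and 3.30 against 6.53, 6.44 and 6.48.

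Compared with normal lung, MRAK013532 fell from 8.71, 8.40 and 8.30 in normal lung to 4.45, 3.59 and 3.32 in lung tumor. The log2 fold change was -4.68 (SE 0.315, adjusted p = 0.000106), and it was well above background on 2 of the 3 tumor arrays. With the normexp background correction its log2 fold change was -2.49, and that of MRAK020698 was -4.02, so their order depended on the correction. MRAK020698 went from a mean of 12.04 in normal lung, with arrays within 0.06 log2 units of one another, to 7.73, 7.54 and 7.43 (log2 fold change -4.47, SE 0.088, adjusted p = 4.18e-06). It was bright in normal lung and was still well above background on all 3 tumor arrays and in blood, at 8.81 and 8.37. MRAK045612 went likewise from a mean of 12.06, with a range of 0.13, to 8.64, 8.35 and 8.47 (log2 fold change -3.58), and MRAK009873 from 10.74, 10.67 and 10.66 to 7.27, 7.01 and 7.18 (-3.54).

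The remaining falls were of similar size. MRAK013582 had a log2 fold change of -3.71, MRAK159011 of -3.64, MRAK014848 of -3.60, MRAK159631 of -3.51, MRAK034153 of -3.34, MRAK081365 of -3.19 and MRAK142743 of -3.16. In all 7 the tumor arrays lay below the normal lung arrays, and MRAK013582 was well above background on 1 tumor array. In blood they were unlike one another: MRAK014848 was at 10.68 and 10.05, MRAK034153 was not well above background in control blood and was at 6.73 in NNK blood, and MRAK013582 was not well above background on either array. MRAK080704 was the one uneven fall, with 9.35, 6.18 and 5.30 in normal lung and 4.30, 1.34 and 1.63 in lung tumor, where 1 array was well above background. With the dim tumor arrays set at their weakest marked signal, its mean fall was at least 3.58 log2 units. Its fitted log2 fold change of -4.52 (SE 1.34, adjusted p = 0.0295) was not called without normal lung 1 (-3.34, adjusted p = 0.0511), normal lung 2 (0.0563), lung tumor 2 (0.0925) or lung tumor 3 (0.0887), nor with the slide as a block (-2.65, adjusted p = 0.245).

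**Figure D4:**
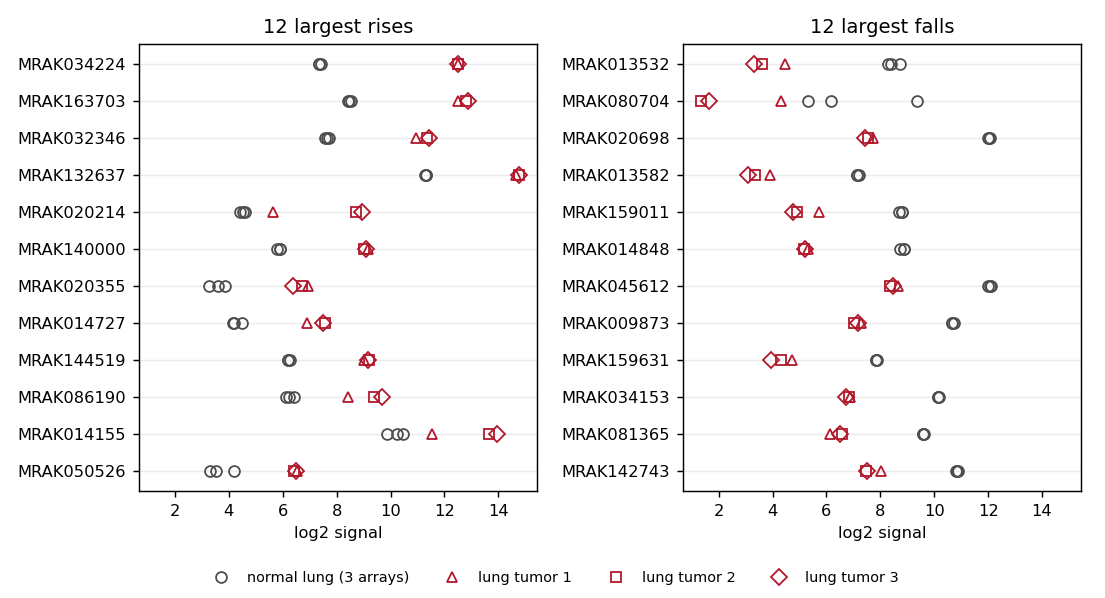
Log2 signal (horizontal axis) of the 12 MRAK lncRNAs with the largest rise (left) and the 12 with the largest fall (right) in lung tumor, 1 symbol per array (circles for the 3 normal lung arrays, triangle, square and diamond for lung tumor 1, 2 and 3). Tumor and normal lung do not overlap in any of them, as the rule for naming them required, and tumor 1 stands apart from tumor 2 and 3 in MRAK020214, MRAK014155 and MRAK080704.

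Some MRAK lncRNAs were well above background in lung tumor alone or in normal lung alone. On all 3 tumor arrays and no normal lung array there were 109 (3.04%), against 2.16% of all probes, and on all 3 normal lung arrays and no tumor array 7 (0.195%), against 0.523%. The tumor-only share was 3.17% among XR probes and 4.92% among the remaining lncRNA probes, above MRAK lncRNAs. It was 2.74% among NR, 2.60% among the ultraconserved regions, 1.74% among BC and 1.44% among mRNA probes. The fold changes of these MRAK lncRNAs are lower bounds, in which each dim array is set at no less than the weakest signal that the software marked as well above background on it. Of the 109, 20 had a bound of at least 2-fold, where 31% of all such probes with a value on every lung array had. All 7 of the others had such a bound, as 99.2% of such probes had. These lncRNAs could enter the fit only through the group in which they were well above background, so no p-value is given for them. The calls counted above include 60 of the 109 and all 7 of the others.

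The widest bound of the tumor set was that of MRAK158617, at least 6.53-fold higher in lung tumor. It had log2 signals of 2.62, 2.26 and 2.53 in normal lung, none well above background, and of 6.73, 6.46 and 6.49 in lung tumor. MRAK050663 was at least 6.24-fold higher, MRAK054214 at least 4.34-fold and MRAK138110 at least 4.16-fold. MRAK054214 had 4.27 on tumor 1 but 6.72 and 6.92 on tumor 2 and 3, so that tumor 1 was again the closest to normal lung. In the other direction MRAK046110 had 6.80, 6.94 and 6.95 in normal lung and 2.75, 2.47 and 1.63 in lung tumor, at least 13.3-fold lower, and MRAK030094 was at least 4.32-fold lower. These bounds hold for the processed signals, and with normexp, whose offset raises dim signals, the log2 differences were 1.20 for MRAK158617 and -1.42 for MRAK046110.

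Lung tumor 1 was compared with lung tumor 2 and 3, since the 3 tumor arrays were not alike. Among 1399 MRAK lncRNAs well above background on all 3 tumor arrays, 18 (1.29%, against 1.76% of all probes) were at least 2-fold higher on tumor 1 and 63 (4.50%, against 2.95%) at least 2-fold lower, by more than the range of the normal lung arrays. Of the other lncRNA probes pooled 1.09% were higher and 5.93% lower, and of the mRNA probes 2.03% and 1.82%. The MRAK counts moved with the processing, to 11 and 98 with the 75th percentile shift and to 2 and 30 with normexp. Of the 63, 22 were called up-regulated and 1 down-regulated in lung tumor, and of the 18, 3 were called up-regulated and 5 down-regulated. The matching shares over all probes are not given, so these counts are not read as a trait of MRAK lncRNAs. MRAK086518 had 3.87 on tumor 1 and 7.62 and 7.84 on tumor 2 and 3, with 4.40, 4.08 and 4.38 in normal lung, and MRAK138394 had 5.78 against 9.04 and 9.13, with 5.85, 6.04 and 6.32. In both, tumor 1 was at or below the level of normal lung, and neither was called.

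The opposite pattern was shown by MRAK164314, with 8.88 on tumor 1 and 5.71 and 5.63 on tumor 2 and 3, while normal lung had 9.75, 9.41 and 9.15. MRAK013326 was 7.07 on tumor 1 and 4.75 and 4.63 on the others, with normal lung at 7.03, 6.93 and 6.85. MRAK003597 stood on both sides of normal lung (7.06, 7.23 and 7.47), with 5.65 on tumor 1 and 8.90 and 9.37 on tumor 2 and 3, and was not called. Tumor 1 was on the slide of the normal lung arrays, and tumor and slide cannot be told apart.

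At the other end were MRAK lncRNAs with nearly the same signal on every lung array. Of the 715 well above background on all 8 arrays and with a value on each lung array, 173 had a range over the 6 lung arrays under 0.5 log2 units and 290 a range over 1. Without the same shares over all probes, which are not given, these counts say nothing particular to MRAK lncRNAs. MRAK143013 ran from 14.69 to 14.71 over normal lung and lung tumor, a range of 0.0184. MRAK079278 had a range of 0.0633 and MRAK076134 one of 0.0701. The widest difference between the groups among the 3 was that of MRAK076134, a log2 fold change of -0.02, and MRAK143013 was at 12.67 and 12.73 in blood.

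The blood comparison set NNK blood against control blood at week 95, with 1 array per group and therefore no test. Signals were quantile-normalized within the 2 blood arrays. Of 1591 MRAK lncRNAs well above background on at least 1 of them, 208 (13.1%) were at least 2-fold higher in NNK blood, whereas 23.1% of all probes compared were. The lower ones numbered 344 (21.6%), against 19.1% of all probes. Of the other lncRNA probes 18.3% were higher and 22.4% lower. The median log2 difference was -0.33 over the MRAK lncRNAs, -0.30 over the other lncRNA probes and -0.01 over mRNA probes. Kept to the 1277 on both arrays, 110 were higher and 232 lower, and with the normexp background correction 61 were higher and 74 lower. The mean squared difference between the blood arrays over MRAK lncRNAs was 1.55 times that given by the spread of each probe's spots. For tumor against normal lung this ratio ran from 9.54 to 14.1. The median spot SD of MRAK lncRNAs was 0.263 and 0.225 log2 units in control and NNK blood, against 0.0984 to 0.174 in lung. Which of the counted blood differences go beyond the spread of their spots was not tested.

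MRAK084895 had the largest rise of those that both blood arrays detected, at 9.64 in control and 14.19 in NNK blood, a difference of 4.55 log2 units. It was called up-regulated in lung tumor as well, with 12.79, 12.76 and 12.77 in normal lung and 13.99, 14.53 and 14.48 in lung tumor (log2 fold change 1.56, adjusted p = 0.000495). MRAK004787 was at 5.57 and 8.48 (difference 2.90). It changed the other way in lung, from 16.19, 16.18 and 16.20 to 14.58, 14.50 and 14.42 (log2 fold change -1.69). MRAK135889 was at 5.18 and 7.86, MRAK135480 at 7.15 and 9.79, MRAK138466 at 5.54 and 8.18 and MRAK011429 at 6.92 and 9.49, none of them called in lung. The size of these differences moved with the scaling, and for MRAK004787 it ran from 1.92 to 4.76 over the alternatives. It was larger than that of MRAK084895 with all 8 arrays normalized together (4.76 against 3.21) and in the authors' values (4.38 against 3.09).

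MRAK017419 had the largest fall of those detected on both, from 13.30 in control to 9.18 in NNK blood, a difference of -4.12. The spots of this probe differed widely on these arrays, which gave the difference a spot error of 1.13, and with the outlier-marked spots kept it was -2.70. With all 8 arrays normalized together the difference of MRAK164672 was the wider one (-5.46 against -3.05). MRAK164672 was at 8.85 and 5.39 (difference -3.47) and MRAK006159 at 14.21 and 10.85 (-3.36). Like MRAK017419, both were called down-regulated in lung tumor. MRAK006159 was at 7.98, 7.34 and 7.31 in normal lung and at 4.87, 5.25 and 4.72 in lung tumor. MRAK131885 (7.42 and 4.34), MRAK084575 (10.47 and 7.56) and MRAK015605 (7.99 and 5.23) were not called in lung, the first because outlier marks kept it from the test.

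**Figure D5:**
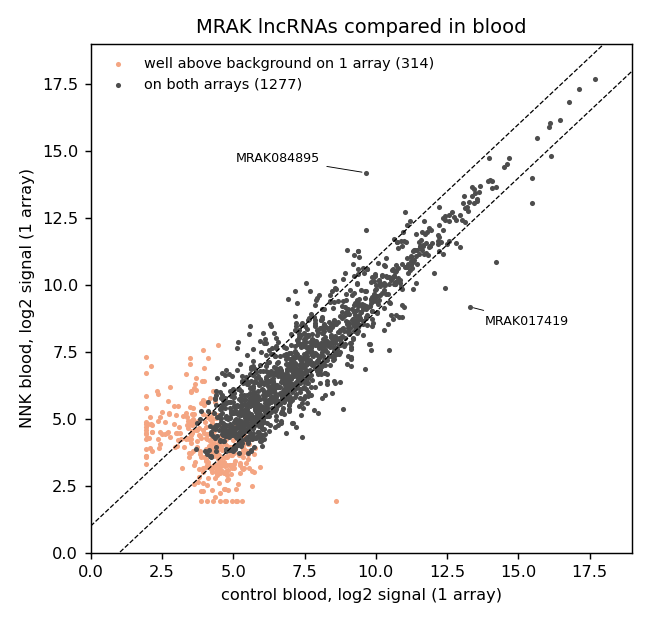
Log2 signal in NNK blood (vertical axis) against control blood (horizontal axis), 1 array each, for the 1591 MRAK lncRNAs compared, dark where both arrays were well above background (1277) and light where 1 was (314). Dashed lines mark a 2-fold difference, and MRAK084895 and MRAK017419 lie farthest from the diagonal among the dark points.

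Lung and blood were also read together. Of the 517 MRAK lncRNAs tested in lung that were well above background on neither blood array, 42.0% were called in lung tumor, 100 up-regulated and 117 down-regulated. Of the 902 on both blood arrays, 22.9% were called, 100 and 107. Over all probes the same shares were 43.8% and 22.2%, close to those of the MRAK lncRNAs. The share at least 2-fold higher in NNK blood was 15.0% of 113 up-regulated in lung tumor, 15.7% of 127 down-regulated and 12.5% of 798 not called. The share at least 2-fold lower was 20.4%, 19.7% and 16.4%. The up-regulated and the down-regulated lncRNAs of lung were thus close to each other in both shares, for which no test was run.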

How the data were processed

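RNA of 3 normal lung, 3 lung tumor, 1 control blood and 1 NNK blood sample had been hybridised to the Arraystar rat lncRNA array. For each spot the authors deposited the intensity that Agilent Feature Extraction 10.5.1.1 gave, background-subtracted and not normalized between arrays. Their log2 values, which the authors quantile-normalized in GeneSpring over all 8 arrays and deposited, served as an alternative. Groups came from the sample labels.

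The processed signals were analysed with R 4.3.3 and limma 3.58.1. Outlier-marked spots were left out, and the other spots of a probe were averaged. Lung probes needed a value on at least 2 arrays per group. The test was two-sided and had the group as its only term. The cell-type markers were 58 genes in 12 lists, of which 44 had a probe. Further sums in lung were those of club and airway (18.1–18.4 in normal lung, 18.4–18.5 in tumor), red blood cell (17.5–17.6, 16.6–16.7) and T cell (11.9–12.0, 11.6–11.8). Those of B cell (3.13–3.78, 3.98–5.13), macrophage (16.5–16.6, 16.7–16.9) and heart muscle (6.57–7.18, 8.56–8.99) were also taken. The heart muscle markers did not move together. Tnnt2 rose from 4.05–4.35 in normal lung to 8.28–8.78 in tumor, and Myh6 fell from 4.76–5.56 to 2.93–4.03. Nppa overlapped (5.39–6.15, 4.90–5.68), and Myl7 was well above background on no array. The array number limits the precision.

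The lncRNAs named were the 12 largest rises and 12 largest falls in lung among those called, with groups that did not overlap and signal above background in both, the 4 and 2 widest bounds, the 6 largest rises and falls in blood on both arrays, the 5 widest gaps between the lowest array of one tissue and the highest of the other in each tissue set, the 3 smallest lung ranges, and the 4 largest differences of lung tumor 1 each way. The members, lists and tests were chosen with earlier results of these data known. The deviations of same-numbered lung arrays correlated at 0.14, -0.04 and 0.16 over 11359 probes, so that they did not go together in all 3 pairs. The steps were tested on simulated data. Alternatives were another scaling, the normexp correction with an offset of 50, other filters, outlier-marked spots kept, the authors' values, the methods' t-test, the replicate or slide as a block, near-identical arrays counted once and each lung array left out. A planned comparison of neighbouring MRAK lncRNAs was not run, because the files used here give no positions.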

Additional observations from a re-analysis of the deposited data

How the results depend on the processing

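Of the named differences that were recomputed under the alternatives (30 in lung, 12 in blood and 8 between tumor arrays), none changed sign. The tissue bounds, the steady lncRNAs and the lung values of lncRNAs named for blood or for the tumor arrays were not recomputed. Of the 12 named rises and 12 named falls in lung, 8 and 11 kept their call in every alternative in which they were tested. The 4 and 2 lncRNAs given as bounds are not counted here, because they entered the fit through 1 group only. Against 213 MRAK lncRNAs up-regulated and 244 down-regulated in lung tumor, normexp with an offset of 50 gave 79 and 146, and counting near-identical arrays once gave 82 and 132. The filter of all 6 lung arrays gave 130 up-regulated and the methods' paired t-test 131. Leaving out 1 lung array gave 187 to 237 up-regulated and 226 to 250 down-regulated. With normexp, MRAK050526 (0.97), MRAK050663 (0.95), MRAK138110 (0.73) and MRAK030094 (-0.53) were under 2-fold on the log2 scale, and MRAK020214 (1.87), MRAK014727 (1.35), MRAK020355 (1.09), MRAK054214 (1.07), MRAK014848 (-2.30), MRAK159011 (-2.28), MRAK159631 (-1.72), MRAK080704 (-1.54), MRAK013582 (-1.34), MRAK013532 (-2.49), MRAK158617 (1.20) and MRAK046110 (-1.42) shrank by over 1.5 times.

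With the replicate number as a block, 204 were up-regulated and 249 down-regulated, of which 199 and 243 were also called without it. The calls of the 12 named rises and 12 named falls in lung were all kept. The same-numbered arrays were not shown to be pairs by their values, although the labels call the tissues matched.

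In blood, against 208 higher and 344 lower, normexp gave 61 and 74, both arrays well above background 110 higher, no filter 347 higher and the authors' values 549 lower. The median difference of all probes in blood was -0.11, and -0.26 with the 75th percentile shift. Counting a lncRNA as detected by at least 1 spot left 418 on no array, 54 in blood alone, 61 in tumor alone and 17 in normal lung alone, and by every spot 17 in normal lung alone. On lung tumor 1, against 18 higher and 63 lower, the 75th percentile shift gave 11 and 98, normexp 2 and 30, and the authors' values 96 lower. The causes were not tested. A dim probe has only a bound, and 1 array per blood group allows no error between samples.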
